A study of Mus musculus with 8 samples.

Results

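Protease inhibitors of 8 structural classes (serpins of 3 groups of clades, Kazal, Kunitz, cystatin, Timp and whey acidic protein types) were examined in goblet cells of mouse small intestine and colon. Members were the probes whose gene symbol was that of a serpin, Spink, Spint, cystatin, Timp, Wfdc gene or Slpi, with Wfdc2 left out. The rule used names and no measured values, and whether each member inhibits a protease was not examined. It gave 107 probes of 25697 on the array, for 89 of 16590 named genes.

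Goblet cells of C57Bl/6 mice came from epithelium freed with EDTA and were gated on the absence of CD45 and CD24, the presence of cytokeratin 18 and the binding of UEA-I, a lectin. No genotype, treatment or age is given in the labels, and all samples share the strain and the gate. The groups were 4 samples of small intestine and 4 of colon, each on 1 Illumina expression array. Whether the samples of a segment came from different animals is not stated, and a p-value here therefore reflects only how far these samples scatter, which may be technical.

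Protease inhibitors bind proteases and block their active sites. Inhibitory serpins are suicide substrates that trap the protease in a covalent complex. Inhibitory Kazal, Kunitz and whey acidic protein domains instead bind serine proteases tightly as short, disulfide-rich plugs. Cystatins block cysteine proteases of the cathepsin type, and Timps block matrix metalloproteinases and related shedding enzymes. In the gut these proteins restrain digestive trypsin, membrane serine proteases of the epithelium, and proteases of leukocytes.

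Of the 89 genes, 5 had the higher level in colon and 3 in small intestine, 9 were tested and did not pass, and 72 were too dim to test. The genes higher in colon were Wfdc18, Timp2, Timp3, Slpi and Cstb. Those higher in small intestine were Serpina1a, Serpina1b and Serpinb1a. A probe was tested where its signal was above background (detection p below 0.05) on at least 4 of the 8 arrays, and the brightest tested probe stood for its gene. The 17 tested members were 19.1% of the 89, against 54.7% of all named genes tested. Calls were made with limma at an adjusted p below 0.05 over all 13618 tested probes. By the same rule, 13.1% of 9080 tested genes were called with colon as the higher segment. The small intestine was the higher one for 9.3%, and 22.4% were called in all. Nothing is read from the 8 calls among 17, since 4 of the 17 passed the filter through 1 segment alone and so had to differ. The median difference was 0.11 log2 over the 17 and 0.07 log2 over all tested genes.

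**Figure D1:**
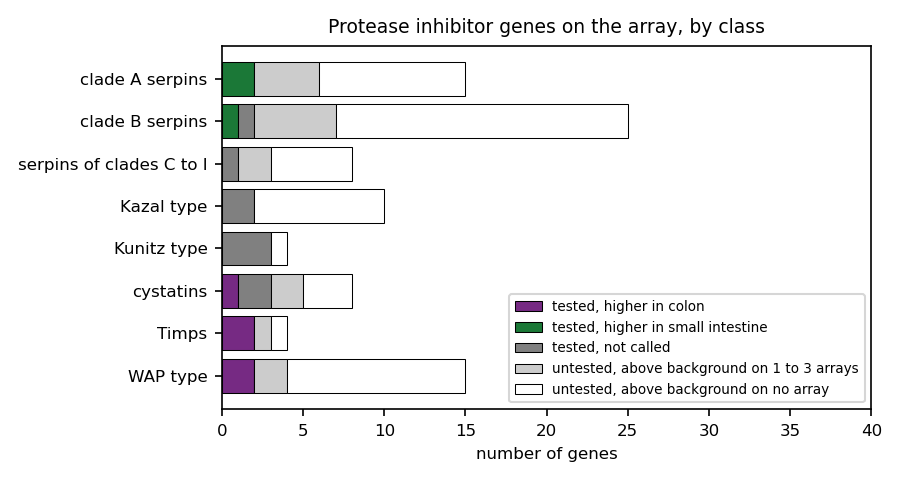
Number of protease inhibitor genes (x axis) in each of 8 classes, split into tested genes higher in colon, higher in small intestine or not called, and untested genes above background on 1 to 3 arrays or on none. Clade B serpins are the largest class with 25 genes, of which 2 were tested, while 3 of the 4 Kunitz genes were tested.

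All values below are log2 normalised intensities, and a difference is colon minus small intestine. Errors are SD over n = 4 arrays unless SE is named. Levels are compared between arrays for 1 probe only, never between genes. Where all 4 arrays of a segment failed to rise above background, the fold is given as a minimum ("at least"). That minimum sets the mean of the brighter segment against the higher of the probe's own value and the lowest value above background on each array of the dimmer one (5.28 to 5.61 over the arrays). The minimum itself was not tested. A limma p-value given near it belongs to the difference against values at background. Nothing is read from that p-value, since the gene passed the filter through 1 segment alone. In sorted bulk cells, fewer cells of a type and less RNA per cell cannot be told apart.

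The promoters of 3 members are shown beside the values that follow, which they do not explain. Mouse Serpina1a and Serpina1b, with 3 further genes, are near-identical copies of alpha-1-antitrypsin, and the pair below shows how alike their upstream sequence is. Wfdc18 is shown as the colon-high member with the highest minimum fold. Each is the 250 bases upstream of the annotated start, 5′ to 3′ on the gene's strand, from RefSeq (GRCm38.p6). Capitals mark motif matches on either strand, which did not overlap each other. The HNF1 motif is the core GTTAAT. For GATA factors the search used AGATAA. The CDX motif was written TTTATG. For the TATA box the letters were TATAAA. These motifs were picked with the sequences in view.
Serpina1a, chr12:103863620-103863869, minus strand: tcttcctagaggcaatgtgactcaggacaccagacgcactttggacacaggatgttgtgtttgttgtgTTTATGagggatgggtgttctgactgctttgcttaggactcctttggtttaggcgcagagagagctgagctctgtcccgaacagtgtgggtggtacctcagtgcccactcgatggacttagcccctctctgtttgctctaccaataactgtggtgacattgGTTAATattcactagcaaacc
Serpina1b, chr12:103738190-103738439, minus strand: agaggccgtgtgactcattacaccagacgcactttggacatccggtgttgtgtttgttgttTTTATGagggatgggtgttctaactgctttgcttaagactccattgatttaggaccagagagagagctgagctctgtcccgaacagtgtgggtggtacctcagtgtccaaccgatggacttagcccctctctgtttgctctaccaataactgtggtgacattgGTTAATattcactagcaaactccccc
Wfdc18, chr11:83708754-83709003, plus strand: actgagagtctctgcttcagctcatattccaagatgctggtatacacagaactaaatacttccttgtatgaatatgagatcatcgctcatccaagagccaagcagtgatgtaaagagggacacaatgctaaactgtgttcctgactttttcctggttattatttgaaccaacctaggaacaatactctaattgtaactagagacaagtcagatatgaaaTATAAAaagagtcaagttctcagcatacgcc

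Both Serpina1 windows hold 1 CDX and 1 HNF1 motif, and the Wfdc18 window holds 1 TATA box and no HNF1 motif. All 5 Serpina1 copies (a to e) hold the HNF1 motif, which was found in 6.43% of 32851 promoter windows of this length. The CDX motif occurred in 10.8% of them, the GATA motif in 9.99% and the TATA box in 12.4%. Over the 300-base entries, which run 50 bases past the start, identity between the copies was 91.4% to 97.6% of the aligned columns in the 10 pairs. Alignments spanned 239 to 300 columns, shortest in pairs with Serpina1e, and unaligned bases were not counted. Serpina1a and Serpina1b matched in 273 of 295 columns. A match is a description of the letters and no sign that a factor binds there. Of the 89 members, 67 had a promoter entry.

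Alpha-1-antitrypsin, the main inhibitor of neutrophil elastase in blood and a product of liver and gut epithelium, was seen in small intestine and not in colon. The brightest Serpina1b probe read 8.08, 7.23, 7.12 and 7.12 on the small-intestinal arrays and 4.63, 4.77, 4.89 and 4.71 on the colon arrays, none of these 4 above background. The groups did not overlap, and small-intestinal array 1 lay above its 3 fellows. The difference against colon values at background was -2.64 (limma, adjusted p = 1.68e-05), and small intestine exceeded colon at least 3.73-fold for Serpina1b. Its other probe read 6.11 ± 0.28 and 5.03 ± 0.22, again above background in small intestine alone. For that probe the difference was -1.08 (limma, adjusted p = 0.00332), and the excess in small intestine was at least 1.54-fold.

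Serpina1a read 6.19, 5.67, 5.76 and 5.98 in small intestine, all above background, and 5.00, 4.78, 4.78 and 4.85 in colon, none above background. The difference against colon values at background was -1.05 (limma, adjusted p = 0.00200), and -0.86 for its other probe (adjusted p = 0.00825). The excess in small intestine was at least 1.33-fold, and at least 1.16-fold for the other probe. These bounds are small because the small-intestinal values lie little above background themselves. Serpina1c and Serpina1d were above background on 3 small-intestinal arrays each and on 0 colon arrays, which left them untested. Serpina1e was above background on 0 arrays. No probe or transcript sequences of the copies were compared, so which of them a probe reports is uncertain.

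Serpinb1a, an intracellular serpin that inhibits elastase-like and chymotrypsin-like proteases of neutrophils, was also higher in small intestine. It read 10.09, 10.26, 10.35 and 10.49 in small intestine against 9.54, 9.68, 9.56 and 9.41 in colon, above background on all 8 arrays. The groups did not overlap, with a gap of 0.42 between them. The difference was -0.75 (SE 0.18, limma, adjusted p = 0.0105), a 1.68-fold excess. The call was lost without scaling between arrays (difference -0.91, adjusted p = 0.0743), and without colon replicates 1 and 4 (difference -0.68, adjusted p = 0.117).

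Serpinb6a, an intracellular inhibitor of cathepsin G and trypsin-like proteases, was the other clade B serpin tested. It measured 11.94 ± 0.20 in small intestine against 12.02 ± 0.25 in colon, and the values overlapped (difference 0.09, 95% interval -0.35 to 0.53, limma, adjusted p = 0.800). Serpinf2, the inhibitor of plasmin, was above background on 4 small-intestinal and 2 colon arrays and did not pass (difference -0.38, SE 0.24, adjusted p = 0.288). Its other 2 probes were above background on 0 arrays. Of the 48 serpins, 5 were tested, 11 more were above background on 1 to 3 arrays, and 32 on none. Among the last were Serping1, the C1 inhibitor, Serpina3n, an acute-phase antichymotrypsin, and Serpinb9, the inhibitor of granzyme B.

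Wfdc18, a small secreted whey acidic protein domain protein, was above background in colon alone. On the small-intestinal arrays it read 4.99, 4.63, 4.57 and 4.69, none above background. On the colon arrays it read 6.43, 7.55, 8.41 and 7.96, all above background. The groups lay 1.44 apart, and colon array 1 was the lowest of the 4. The difference against small-intestinal values at background was 2.87 (limma, adjusted p = 0.000194), and Wfdc18 was at least 4.56-fold higher in colon.

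Wfdc17, whose promoter window starts 4948 bases from that of Wfdc18 on chromosome 11, was above background on 3 colon arrays and on 0 small-intestinal arrays and so was not tested. Its values, picked out after they were seen, were 5.06, 6.32, 5.71 and 5.58 in colon and 4.65, 4.75, 4.76 and 4.66 in small intestine. With probes above background on at least 3 arrays also tested, a setting chosen after seeing the data, Wfdc17 and Serpina1d joined the calls. Both passed that filter through 1 segment alone, so nothing is read from their calls. Serpina1c, above background on 3 small-intestinal arrays and 0 colon arrays, was tested there and not called. Calls among members then numbered 6 for colon and 4 for small intestine, against 1220 and 864 over all 9483 genes tested.

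Slpi, the secretory leukocyte protease inhibitor, which blocks neutrophil elastase on mucosal surfaces, was higher in colon. It read 5.48, 5.18, 5.82 and 5.60 in small intestine, where 2 arrays were above background, and 6.21, 6.26, 6.88 and 6.82 in colon. The groups did not overlap, and the difference was 1.02 (SE 0.23, limma, adjusted p = 0.00860). The call was lost without scaling between arrays (difference 0.77, adjusted p = 0.132), and without colon replicates 1 and 4 (difference 1.05, adjusted p = 0.0505). Of the 15 genes of this class, 2 were tested, both higher in colon, and 11 were above background on 0 arrays.

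Cstb, the intracellular cystatin B, which inhibits lysosomal cathepsins, was higher in colon. It read 10.83, 10.23, 10.35 and 10.42 in small intestine against 11.26, 11.43, 11.11 and 11.38 in colon, above background on all 8 arrays. The lowest colon value lay 0.28 above the highest small-intestinal one, that of array 1. The difference was 0.84 (SE 0.19, limma, adjusted p = 0.00988), or 1.79-fold. The call was lost without scaling (difference 0.71, adjusted p = 0.138) and without colon replicates 1 and 4 (difference 0.82, adjusted p = 0.0935).

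Cst3, the secreted cystatin C, was measured on all 8 arrays at 9.76 ± 0.54 in small intestine and 9.87 ± 0.44 in colon (difference 0.11, 95% interval -0.56 to 0.78, limma, adjusted p = 0.840). The groups overlapped. Cst11, a cystatin known from the epididymis, gave 8.30 ± 0.21 and 8.38 ± 0.34 (difference 0.08, 95% interval -0.40 to 0.56, adjusted p = 0.844). Its second probe was above background on 0 arrays, so the 2 probes of Cst11 did not give the same picture. For Cst3 and Cst11 the sign of the difference turned when a single array was left out.

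Timp2, which inhibits metalloproteinases and also takes part in the activation of Mmp2 by Mmp14, was seen in colon alone. It read 6.59, 6.31, 6.96 and 6.27 on the colon arrays and 4.80, 4.74, 4.60 and 4.68 on the small-intestinal arrays, none of the latter above background. The groups lay 1.47 apart. The difference against small-intestinal values at background was 1.83 (limma, adjusted p = 7.11e-05), and Timp2 was at least 2.20-fold higher in colon.

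Timp3, a matrix-bound inhibitor that also blocks the shedding enzyme Adam17, read 5.49, 6.97, 6.13 and 6.31 in small intestine, where 3 arrays were above background. On the colon arrays it read 7.74, 7.67, 8.29 and 8.10. The groups did not overlap, and small-intestinal array 1 was the lowest of all. The difference was 1.72 (SE 0.30, limma, adjusted p = 0.00175). Its second probe gave 0.99 (SE 0.32, adjusted p = 0.0503) with overlapping values, and so missed the threshold. Timp1 was above background on 0 arrays and Timp4 on 1 colon array.

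**Figure D2:**
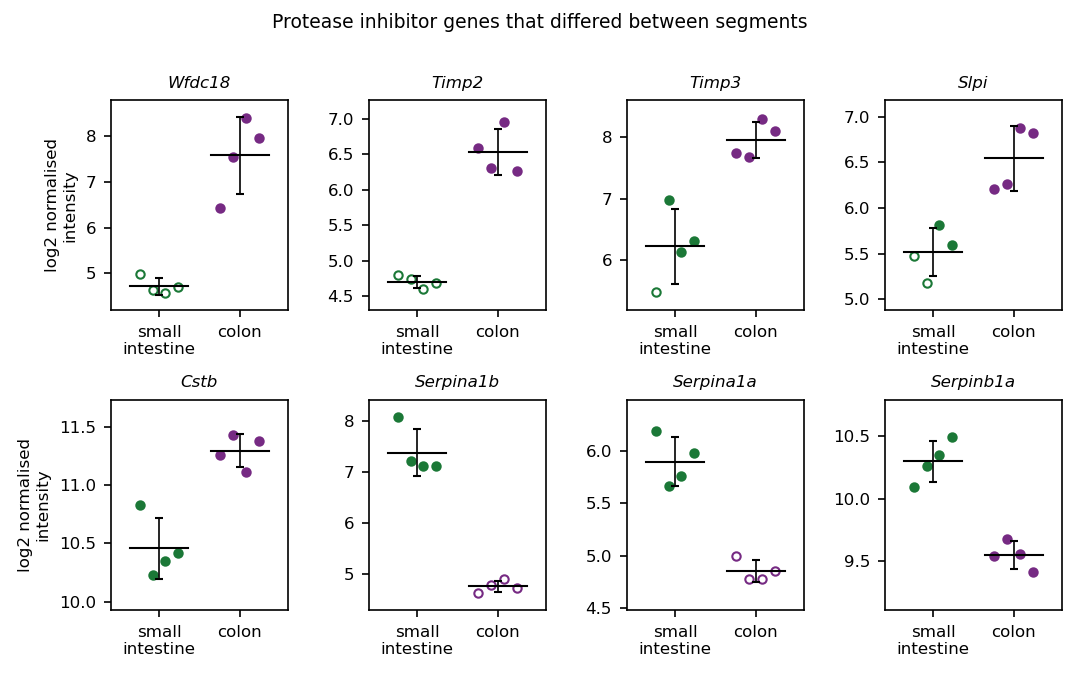
Log2 normalised intensity (y axis, own range per panel) of the 8 protease inhibitor genes called, by segment, with replicates 1 to 4 from left to right. Filled points were above background and open points were not, and bars are the mean and SD (n = 4). Open points fill the small-intestinal side for Wfdc18 and Timp2 and the colon side for Serpina1a and Serpina1b.

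**Figure D3:**
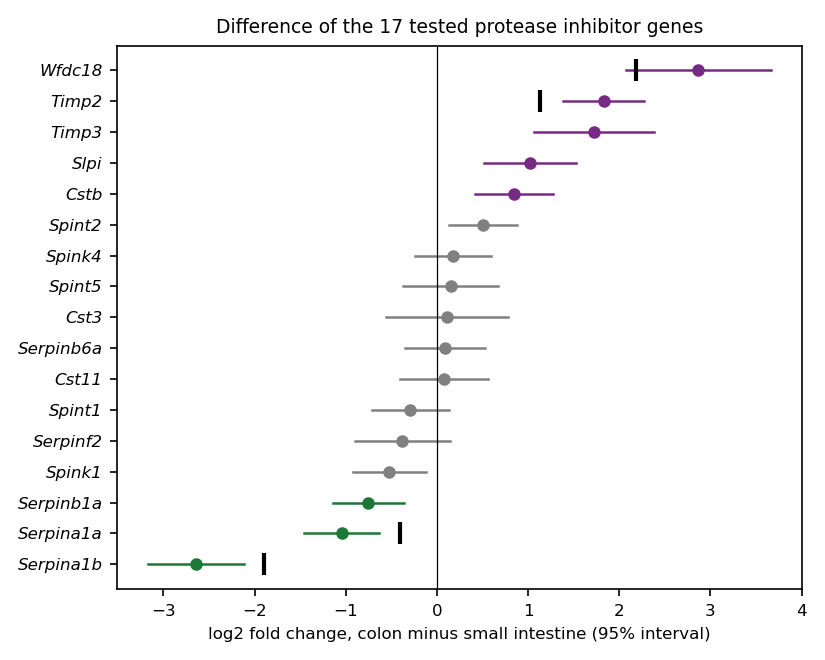
Difference in log2 intensity, colon minus small intestine (x axis), of the 17 tested genes with its 95% interval. Purple marks genes called higher in colon, green those higher in small intestine, and grey those not called, and the black ticks give the lower bound for the 4 genes above background in 1 segment alone. Wfdc18 lies at 2.87 and Serpina1b at -2.64, and their bounds lie nearer to 0.

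None of the 5 tested Kazal and Kunitz inhibitors passed the test. Spink4, a Kazal inhibitor known as a product of goblet cells, measured 12.46 ± 0.20 in small intestine against 12.64 ± 0.19 in colon (difference 0.18, 95% interval -0.24 to 0.60, limma, adjusted p = 0.555). Spink1, the pancreatic secretory trypsin inhibitor, read 13.66, 13.38, 13.66 and 13.57 in small intestine and 12.76, 13.14, 13.23 and 13.05 in colon. Its groups lay 0.14 apart, and the difference of -0.52 (SE 0.18, limma, adjusted p = 0.0676) missed the threshold. Under 4 of the 21 alternatives Spink1 did pass, and its adjusted p ranged between 0.00524 and 0.368. The other 8 Spink genes were above background on 0 arrays.

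Spint1 and Spint2 are membrane Kunitz inhibitors that control matriptase (St14), prostasin (Prss8) and the activator of hepatocyte growth factor (Hgfac), and loss of human SPINT2 causes a congenital diarrhoea with sodium loss. Spint1 measured 9.23 ± 0.24 in small intestine against 8.94 ± 0.15 in colon (difference -0.29, 95% interval -0.71 to 0.13, limma, adjusted p = 0.318). The 2 probes of Spint2 pointed opposite ways. The brighter one read 12.82, 12.55, 12.53 and 12.61 in small intestine and 13.13, 13.01, 13.23 and 13.16 in colon, without overlap (difference 0.50, SE 0.17, adjusted p = 0.0579). The dimmer one gave a difference of -0.30 (SE 0.19, adjusted p = 0.303) with overlapping values. For the brighter probe 7 alternatives gave a call, with an adjusted p between 0.00278 and 0.0496. Over all alternatives that used this probe alone, the adjusted p reached 0.434. The mean of both probes differed by 0.10 (adjusted p = 0.696). Leaving out small-intestinal replicate 1 was one of the 7 (adjusted p = 0.0328). Spint5 was above background on 3 arrays of each segment, at 5.48 ± 0.16 and 5.63 ± 0.44 (difference 0.15, SE 0.24, adjusted p = 0.699), and Spint4 on 0 arrays.

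**Figure D4:**
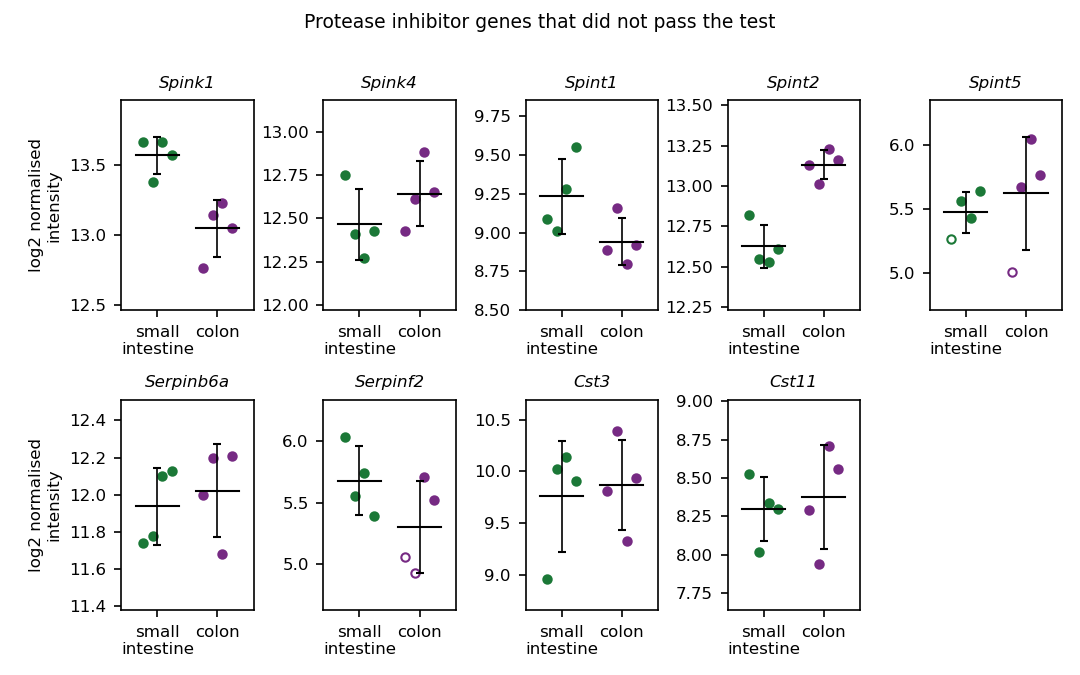
Log2 normalised intensity (y axis, own range per panel) of the 9 tested protease inhibitor genes that were not called, drawn as for the called genes, with open points not above background and bars for the mean and SD (n = 4). Spink1 and Spint2 show no overlap between segments, and the other 7 genes overlap.

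Values of the segments did not overlap for 10 of the 17 tested members, with colon above for 6 (Spint2 among them) and small intestine above for 4 (Spink1 among them). Over all tested genes 26.2% did not overlap, 15.7% with colon above and 10.4% with small intestine above. For Wfdc18, Timp2, Serpina1a and Serpina1b the lack of overlap follows from passing the filter through 1 segment alone, so nothing is read from the count of 10. Colon array 3 gave the highest colon value for 11 of the 17, among them 4 of the 5 genes called higher in colon. Over all tested genes that array was highest for 35.5%.

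The 16 untested genes above background on 1 to 3 arrays were Cst10, Cst7, Serpina10, Serpina1c, Serpina1d, Serpina9, Serpinb12, Serpinb5, Serpinb6b, Serpinb8, Serpinb9c, Serpinc1, Serpinh1, Timp4, Wfdc17 and Wfdc6b. The 56 above background on 0 arrays were Cst13, Cst6, Cst9, Serpina11, Serpina12, Serpina1e, Serpina1f, Serpina3b, Serpina3n, Serpina5, Serpina6, Serpina7, Serpinb10, Serpinb11, Serpinb13, Serpinb1b, Serpinb1c, Serpinb2, Serpinb3a, Serpinb3c, Serpinb3d, Serpinb6c, Serpinb6d, Serpinb6e, Serpinb7, Serpinb9, Serpinb9b, Serpinb9d, Serpinb9e, Serpinb9g, Serpind1, Serpinf1, Serping1, Serpini1, Serpini2, Spink10, Spink11, Spink12, Spink14, Spink2, Spink6, Spink7, Spink8, Spint4, Timp1, Wfdc1, Wfdc10, Wfdc12, Wfdc13, Wfdc15b, Wfdc16, Wfdc21, Wfdc3, Wfdc5, Wfdc6a and Wfdc8. A signal at background is not evidence that a gene is silent, since a probe may also be weak.

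Proteases were described from broad lists of genes by type, and whether the members act on each listed protease was not examined. Of 23 tested serine proteases, 6 had their higher level in colon and 4 in small intestine (43.5% called, against 22.4% of all tested genes), with a median difference of 0.04. Cela1, a pancreatic-type elastase, was higher in colon by 4.29 (SE 0.25, limma, adjusted p = 8.94e-07), and Hgfac by 2.79 (SE 0.22, adjusted p = 6.98e-06). Tmprss15, enteropeptidase, which starts the activation of trypsinogen, was lower in colon (-3.62, SE 0.73, adjusted p = 0.00454), where 1 of 4 arrays was above background, so the size of the difference rests on values at background. Gzma, the granzyme A of cytotoxic lymphocytes, had a difference of -3.45 (SE 0.53, adjusted p = 0.000813), with 3 of 4 colon arrays above background.

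The other proteases held by Spint1 and Spint2 were looked up after their values were seen. Prss8 was higher in colon, at 8.43 ± 0.43 against 7.19 ± 0.44 (difference 1.24, SE 0.28, limma, adjusted p = 0.00859). St14 measured 11.39 ± 0.19 in small intestine against 11.70 ± 0.20 in colon (adjusted p = 0.287).

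Of 13 tested metalloproteinases, 3 had their higher level in colon and 3 in small intestine (46.2% called), with a median of -0.07. Adam15 and Mmp14, the membrane protease that pairs with Timp2, were higher in colon by 1.87 (SE 0.30, limma, adjusted p = 0.00108) and 1.82 (SE 0.26, adjusted p = 0.000436). Mmp7, the matrilysin of Paneth cells, had a difference of -4.33 (SE 0.47, adjusted p = 6.29e-05, 3 of 4 colon arrays above background), and Mep1b, a brush border meprin, of -1.64 (SE 0.18, adjusted p = 7.14e-05). Adam17 measured 10.20 ± 0.07 in small intestine against 10.05 ± 0.23 in colon (adjusted p = 0.585), and Mmp2 was above background on 0 arrays. Adam17 and Mmp2 were also looked up after the values were seen.

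Of 9 tested lysosomal proteases, which are of the cysteine type except Tpp1, a serine protease, 1 was called, which is 11.1%. It was Ctss, cathepsin S, higher in colon by 0.76 (SE 0.18, limma, adjusted p = 0.0131), and the median was 0.20. Of 7 tested receptors of proteases and their complexes, 1 was called (14.3%), with a median of 0.11. It was the plasminogen receptor Plgrkt (difference 0.75, SE 0.21, limma, adjusted p = 0.0300). Of 13 tested genes listed as inhibitors of other families, 15.4% were called, with a median of 0.42. Whether each of them inhibits a protease was not examined. The calls were 2 for colon and 0 for small intestine. These were Itih5, of the inter-alpha-trypsin inhibitor family, by 1.42 (SE 0.21, adjusted p = 0.000670, 2 of 4 small-intestinal arrays above background, so measured against values at background), and Tinagl1 by 0.83 (SE 0.24, adjusted p = 0.0282).

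**Figure D5:**
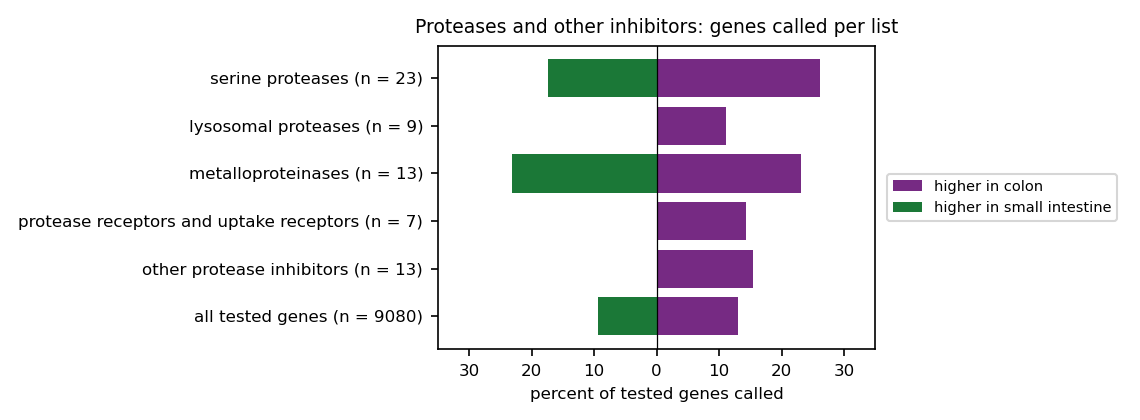
Percent of tested genes called (x axis) higher in colon, drawn to the right, or in small intestine, drawn to the left, for 5 lists of proteases, receptors and other inhibitors and for all 9080 tested genes. Serine proteases (10 of 23 called) and metalloproteinases (6 of 13 called) have genes on both sides, and the other 3 lists have calls on the colon side alone.

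Markers of other cell types differed between segments as well. All 8 goblet markers with a probe were tested, with 5 called for colon and 0 for small intestine. Their summed normalised intensity was 23572 to 25302 in small intestine and 27772 to 33852 in colon. The part of goblet cells in the colon-high inhibitors was not tested. Muc2 and Fcgbp had no named probe and were not analysed here. The summed normalised intensity of the 8 Paneth markers with a probe was 93279 to 105134 in small intestine, 15107 and 15650 on colon arrays 1 and 4, and 2639 and 1469 on colon arrays 2 and 3. That of the 12 enterocyte markers was 41326 to 60602 in small intestine and 3458 to 11182 in colon, with 11 of 12 genes higher in small intestine and 0 in colon. Of 9 tested lymphocyte markers, 7 were higher in small intestine, and the sums over 11 genes were 2499 to 4427 against 449 to 1290. Enterocyte sums were 6181 and 11182 on colon arrays 1 and 4, and 3458 and 3851 on colon arrays 2 and 3. Lymphocyte sums were 915 and 1290 on the former, and 449 and 548 on the latter. Serpina1a, Serpina1b and Serpinb1a were higher in the same segment as these 3 lists, which is a match of direction between segments only. On colon arrays 1 and 4 Serpinb1a read 9.54 and 9.41, against 9.68 and 9.56 on arrays 2 and 3. Serpina1a and Serpina1b were not above background on any colon array. The part of those cells in the differences was not tested.

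For the genes higher in colon, the stromal markers Col1a1, Col1a2, Lum, Pdgfra and Sparc were above background on 0 arrays. The sum over all 10 stromal markers was 814 to 1041 in small intestine and 813 to 1160 in colon, highest on colon array 3. Only 2 of the 10 were tested, so that sum also holds genes too dim to test. Tagln was higher in colon, by 1.31 against values at background (limma, adjusted p = 0.00266) and at least 1.85-fold. It passed the filter through colon alone, so nothing is read from its call. Acta2 was not called (difference -0.20, adjusted p = 0.546). Timp2 and Timp3 were highest on colon array 3 too, as was the colon value of 35.5% of all tested genes. In small intestine the stromal sum was highest on array 1, where Timp3 was lowest (5.49) and Timp2 was not above background. A part of stromal cells was not tested. The myeloid markers S100a8, S100a9 and Adgre1 were above background on 0 arrays, and the sum over 8 genes was 602 to 860 in small intestine and 344 to 481 in colon. Of the 3 tested, Lyz2 (difference -2.44, SE 0.43, limma, adjusted p = 0.00203) and Tyrobp (-2.25, SE 0.42, adjusted p = 0.00281) were higher in small intestine. For each, 2 of 4 colon arrays were above background. The 3 serpins called for small intestine had that direction too. Cd14 was higher in colon (difference 1.76, SE 0.22, adjusted p = 0.000198), as were the 5 members called there. Only 1 of 4 small-intestinal arrays was above background for Cd14, so it was measured against values at background. These are matches of direction only, and the part of myeloid cells in either direction was not tested. The 9 colonocyte markers with a probe summed to 2779 to 3673 in small intestine and 15595 to 17711 in colon, and the part of absorptive cells in the colon-high inhibitors was not tested. Sums for endothelial, mast, tuft, enteroendocrine and plasma or B cell markers overlapped between segments. Even so, of 8 tested enteroendocrine markers 1 was called for colon and 2 for small intestine. The 1 tested endothelial marker was called for small intestine. Of the tuft (5 tested), mast (1) and plasma or B cell (1) markers, 0 were called. Above background on 0 arrays were 4 of 6 endothelial, 4 of 5 mast and 3 of 6 plasma or B cell markers, so these sums hold many values at background.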

How the data were processed

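A pair of tables was used. Per the file headers, the first holds for each probe a mean signal intensity and a detection p-value per array. The deposited intensity values are linear. Array means of 386 to 558 show no scaling to 1 mean, and lowest signals of 96.7 to 113 lie well above 0, where subtracted values would reach. The second, of the authors' processed intensity values, has 1 mean on all arrays and served as an alternative. Per the labels, biotinylated cRNA was hybridised. The sources used here do not name the scanner software. The corrupted text of 1 cell, of no member, was replaced by its value from the linear relation between both tables.

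Background was corrected with normexp from the detection p-values (offset 16), followed by quantile normalization and log2 (neqc, limma 3.58.1, R 4.3.3). Probes above background on at least 4 of 8 arrays (12447 to 13922 probes per array were) were fitted with lmFit and eBayes, two-sided, with Benjamini-Hochberg adjustment over 13618 probes. The fit was tested on simulated data. Names came from the platform annotation, updated through RefSeq, for 23978 probes. Tables were made with pandas 2.3.3 and numpy 2.4.6 in Python 3.11.15, and figures with matplotlib 3.10.9. The number of arrays limits precision.

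Members, gene lists and tests were chosen with earlier results of these data known. Each tested member was named, those called with all values, the 8 brightest others with group values (array values for Spink1 and Spint2), and from each list of proteases and other inhibitors up to 2 called genes that rose most and 2 that fell most. Alternatives covered background, scaling, filters, variance priors, a replicate block and omitted arrays. Correlations of same-numbered arrays' deviations from their group means were 0.07, 0.25, -0.18 and 0.05, so the numbers were not taken as pairs. Slide and scan were not analysed as batches, since the sources used here do not give them.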

Additional observations from a re-analysis of the deposited data

Results flagged for a closer look

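The Serpina1b value on small-intestinal array 1, 8.08 log2, lay apart from the other 3 small-intestinal arrays (7.12 to 7.23). It was 1 of 34 groups of 4 values checked for a sample far from its fellows, where chance flags about 1 group in 20. Without that array the difference, against colon values at background, was -2.41 log2 (limma, adjusted p = 9.15e-06). Serpina1b passed the filter through 1 segment alone, so nothing is read from that p-value.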

How the results depend on the processing

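With 21 alternatives, the calls of Wfdc18, Timp2, Timp3, Serpina1a and Serpina1b held wherever these genes were tested. For Wfdc18, Timp2, Serpina1a and Serpina1b nothing is read from this, since they passed the filter through 1 segment alone and so had to differ. Requiring all 8 arrays above background left 9 member genes in the test. Of these, 2 were called for colon (Cstb, Spint2) and 1 for small intestine, against 872 and 553 of all 6979 genes tested. Without scaling between arrays, members had 3 calls for colon and 2 for small intestine, against 583 and 671 of all 9080 genes tested. The share of calls higher in colon moved from 58.5% to 46.5%, and the median of all genes moved from 0.07 to -0.14 log2. That setting turned the sign of Spint5 (-0.068), Serpinb6a (-0.0099), Cst11 (-0.15) and Cst3 (-0.051). With no filter, 8 of 89 members were called for colon (Serpinb5, Spint2 and Wfdc17 added) and 4 for small intestine, against 1182 and 780 of all 16590 genes. Without colon replicates 1 and 4, members had 3 calls for colon and 2 for small intestine, and all genes 721 and 527. The Paneth, enterocyte and lymphocyte sums were higher on those arrays than on colon arrays 2 and 3. With 1 array left out at a time, members had 5 to 6 calls for colon and 3 each time for small intestine, and all genes 884 to 1562 and 626 to 1103. Cst3 then ranged from -0.16 to 0.29, turning sign when small-intestinal replicate 1 or colon replicate 2 (-0.07) was omitted. Cst11 ranged from -0.035 to 0.22, turning sign when small-intestinal replicate 2 (-0.02) or colon replicate 3 was omitted. With no background correction, differences shrank but kept their calls, to 1.21 for Wfdc18, 0.65 for Timp2, 0.85 for Timp3, 0.35 for Slpi, -0.34 for Serpina1a and -1.04 for Serpina1b. With an offset of 50 they were 1.93 for Wfdc18, 1.08 for Timp2 and -1.73 for Serpina1b. At the main offset, the mean of both Serpina1b probes gave -1.86. With the replicate number as a block, 5 and 3 member genes passed, as in the fit without it, and 1062 and 763 of all genes. Only 1 of 4 small-intestinal arrays correlated best with the colon array of its own number. Signals near background limit the folds of Slpi, Timp2, Wfdc18, Serpina1a and Serpina1b. The causes of these changes were not tested.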
